A study of Caenorhabditis elegans with 12 samples.

Results

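Small RNA reads were examined at 6 genes of the olfactory cGMP pathway of Caenorhabditis elegans, egl-4, odr-1, odr-3, tax-2, tax-4 and daf-11, among 46726 genes counted. The gene egl-4 was chosen by its many more reads in hrde-2 mutants than in controls, and the other 5 by their place in the same pathway. All animals were whole adults grown at 20 °C that carried hrde-1(gg594). The control strain YY1312 had that allele alone, although the sample titles call it wild-type, and the mutant strain YY1192 had hrde-2(gg517) as well. Each strain was fed bacteria making dsRNA of oma-1, an oocyte gene, or L4440 dsRNA, from the vector without a worm gene. The 4 groups of 3 samples were deposited as 1 column of counts each, so that no spread between samples could be measured. All control libraries carried the 5′ barcode AGCG and all hrde-2 libraries CGTC, so that genotype and barcode cannot be told apart.

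In the pathway, odorants act on receptors in the cilia of the AWC and AWB neurons. A G protein alpha subunit, ODR-3, passes the signal to receptor guanylyl cyclases, ODR-1 and DAF-11, and the cGMP level sets the opening of a cyclic nucleotide-gated channel made of TAX-2 and TAX-4. EGL-4 is a cGMP-dependent protein kinase. It enters the AWC nucleus during long odor exposure and is needed for adaptation, and it also acts in body size, egg laying and behavioural states. Nuclear RNAi has been tied to odor adaptation through NRDE-3, a nuclear Argonaute, and small RNAs that match odr-1. The labels mention no odor exposure here. HRDE-1 is the nuclear Argonaute of the germline, and HRDE-2 is needed with it for inherited silencing. Small RNAs at a gene are molecules that match it, mostly antisense in the case of 22G RNAs, and do not measure its mRNA. In whole animals the cells that made them cannot be told apart.

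The columns held 25323188 (L4440-fed controls), 34238988 (oma-1-fed controls), 39077097 (L4440-fed mutants) and 16057238 (oma-1-fed mutants) gene-assigned reads, and sets of 4 values below keep that sequence of groups. Levels are given as CPM, counts divided by a depth that the trimmed mean of M values (TMM) sets, or as RPKM, the CPM per kilobase of annotated exon, where genes are compared with each other. Intervals are exact 95% intervals that cover counting error only, and PCR copies of a molecule are counted as separate reads. On the TMM scale the relative depths were 1, 1.39, 4.08 and 1.33 in the order above, whereas gene-assigned totals gave 1, 1.35, 1.54 and 0.634. A change of scale moves all genes of a column alike and therefore matters for every genotype difference given here. Reads at hrde-2 itself numbered 7, 13, 50 and 14, and these small RNAs do not show whether an allele is present.

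The gene egl-4 (WBGene00001173, chromosome IV, 1848071 to 1880596, plus strand, build WBcel235) had 158 reads in L4440-fed and 203 in oma-1-fed controls, and 12128 in L4440-fed and 2417 in oma-1-fed mutants. Both hrde-2 columns lay far above both control columns. As levels these were 9.66 CPM (8.21 to 11.3), 8.91 CPM (7.73 to 10.2), 182 CPM (179 to 185) and 111 CPM (106 to 115). Among 19617 protein-coding genes, egl-4 ranked 530 and 596 by reads in controls, but 38 and 62 in mutants. It held 0.00445% and 0.00397% of all reads at protein-coding genes in the controls, and 0.195% and 0.0974% in hrde-2.

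Divided by the control level, the mutant level of egl-4 was 18.8 (16.1 to 22.2) with L4440 food and 12.4 (10.8 to 14.4) with oma-1 food, log2 differences of 4.23 and 3.63. These values chose the gene and are given as a description. Genes with 5 CPM or more in the higher group were compared, and a level 2-fold or more above control was seen at 14.5% of 1333 such protein-coding genes with L4440 food and 15.1% of 1327 with oma-1 food. From the highest, egl-4 was number 7 and number 19 among them. Relative to their median, which was −0.36 on L4440 and −0.27 on oma-1 dsRNA, egl-4 stood at 4.59 and 3.90 on the log2 scale, values that a change of scale does not move.

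The other 5 genes had few reads in every group, from 1 to 7 in L4440-fed and 5 to 14 in oma-1-fed controls, and 9 to 41 in L4440-fed and 3 to 16 in oma-1-fed mutants. None reached 5 CPM in any column. The G protein gene odr-3 (WBGene00003850, chromosome V, 13246324 to 13249536, minus strand) had 1, 5, 9 and 3 reads. It was the lowest of the 6 in each column, and it did not pass the filter on low counts that the other members passed. The receptor guanylyl cyclase gene daf-11 (WBGene00000907, chromosome V, 11718102 to 11726071, minus strand) had 7, 14, 27 and 6 reads. The second cyclase gene, odr-1 (WBGene00003848, chromosome X, 13544729 to 13550990, minus strand), had 7, 12, 39 and 13 reads. Their levels were between 0.275 and 0.615 CPM, and the interval of each column overlapped those of the other columns. Of the channel genes, tax-2 (WBGene00006525, chromosome I, 9020945 to 9025608, plus strand) had 3, 12, 16 and 5 reads and tax-4 (WBGene00006526, chromosome III, 9181546 to 9185888, plus strand) 6, 12, 41 and 16. By reads, tax-4 was the highest of the 5 in both hrde-2 columns.

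Per length, egl-4 stood above the rest of the pathway in each group, at 2.56, 2.37, 48.3 and 29.4 RPKM. In control on L4440 the order below it was tax-4 at 0.145, odr-1 at 0.126, daf-11 at 0.102, tax-2 at 0.0746 and odr-3 at 0.0375 RPKM, and the intervals of all 5 overlapped. In hrde-2 on L4440, with more reads, the order was tax-4 at 0.243 (0.175 to 0.330), odr-1 at 0.172 (0.122 to 0.235), tax-2 at 0.0976 (0.0558 to 0.159), daf-11 at 0.0970 (0.0639 to 0.141) and odr-3 at 0.0827 RPKM (0.0378 to 0.157). There the interval of tax-4 lay above those of tax-2, daf-11 and odr-3, and neighbours in the order overlapped. For each read at the 5 genes summed, egl-4 had 6.58 reads (4.27 to 10.6) in L4440-fed and 3.69 (2.73 to 5.07) in oma-1-fed controls. In mutants the quotient was 91.9 (77.4 to 109.9) with L4440 and 56.2 (41.6 to 77.9) with oma-1 food. The quotient is taken within a column and does not depend on any scaling. Its egl-4 reads are those that chose the gene, so it is given as a description.

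**Figure D1:**
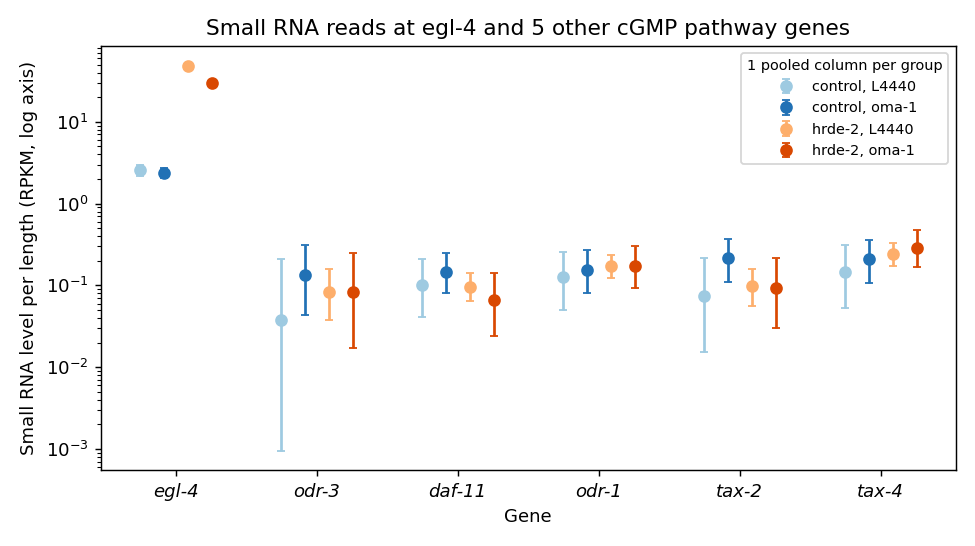
Small RNA level of the 6 pathway genes in each group, in RPKM on a log axis; each point is 1 pooled column and bars are exact 95% Poisson intervals of the reads. The hrde-2 points of egl-4, at 48.3 and 29.4 RPKM, stand above its control points at 2.56 and 2.37, while the points of the other 5 genes lie below 0.3 RPKM in all groups.

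On the TMM scale and at this depth the 5 other genes did not show a genotype difference. With L4440 food the mutant level over the control level was 1.68 (0.708 to 4.83) at tax-4, 1.37 (0.605 to 3.62) at odr-1, 1.31 (0.375 to 7.01) at tax-2, 0.947 (0.402 to 2.57) at daf-11 and 2.21 (0.306 to 96.8) at odr-3. With oma-1 food it was 1.39 (0.618 to 3.22) at tax-4, 1.13 (0.476 to 2.71) at odr-1, 0.435 (0.120 to 1.33) at tax-2, 0.448 (0.141 to 1.24) at daf-11 and 0.627 (0.0973 to 3.22) at odr-3. Each of these intervals holds 1. Of the 7261 protein-coding genes with as few reads in total as these 5, 18 to 75, the interval excluded 1 upward in 5.38% on L4440 and 4.43% on oma-1 dsRNA, and downward in 3.58% and 2.92%. Summed over the 5 genes there were 24 and 132 reads in control and hrde-2 on L4440, a ratio of 1.35 (0.869 to 2.18), and 55 and 43 reads on oma-1 dsRNA, a ratio of 0.817 (0.535 to 1.24).

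The genotype effect averaged over both foods was tested in edgeR's quasi-likelihood fit of genotype and dsRNA over the 4 columns, which leaves 1 residual degree of freedom and takes the spread from departures from additivity, shared over 16329 features. With Benjamini-Hochberg adjustment over those features, tax-4 had a log2 effect of 0.59 (adjusted p = 0.382), odr-1 of 0.31 (adjusted p = 0.697), tax-2 of −0.48 (adjusted p = 0.648) and daf-11 of −0.54 (adjusted p = 0.466). On the TMM scale no member tested passed 0.05 in either direction, against 8.95% of all features called higher and 9.7% called lower. The negative effects of tax-2 and daf-11 turned to 0.19 and 0.14 under the authors' factors and to 0.71 and 0.67 under library size alone. Under library size alone odr-1 (1.52, adjusted p = 0.00447) and tax-4 (1.79, adjusted p = 0.000747) passed in the same fit, on a scale where genes of like abundance had a median log2 difference of 1.55 on L4440. With the authors' factors tax-4 passed in the edgeR fit (1.27, adjusted p = 0.0221), where that median was 0.98.

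Feeding oma-1 dsRNA is a different contrast from the one that chose egl-4, although it uses the same columns, whose high hrde-2 values entered that choice. In control animals egl-4 stood at 9.66 CPM on L4440 and 8.91 CPM on oma-1 dsRNA, a ratio of 0.923 (0.746 to 1.14). In hrde-2 mutants it stood at 182 and 111 CPM, a ratio of 0.609 (0.583 to 0.636) and a log2 difference of −0.72. The hrde-2 interval lies below 1 and the control interval holds it. Of the 1118 protein-coding genes compared in hrde-2, egl-4 was number 25 from the lowest, and the central 95% of their log2 differences ran from −0.68 to 0.94. At least 2-fold lower were 1.43% of those genes and at least 2-fold higher 1.79%, and egl-4 was in neither set. In controls these shares were 0.0809% and 0.566% of 1236 genes. The difference between the dsRNA effects of the genotypes was −0.60 on the log2 scale (−0.91 to −0.29, counting error only), inside the central 95% over protein-coding genes, −1.10 to 1.23. In the additive fit the dsRNA effect at egl-4, averaged over genotypes, was −0.43 (edgeR, adjusted p = 0.9995), where 0.098% of features were called higher and 0.0796% lower.

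For the 5 other genes the ratio of oma-1 to L4440 dsRNA had intervals that held 1 in both genotypes. Among the genes with as few reads, the interval lay above 1 in 1.6% and below it in 1.47% in controls, and in 2.02% and 1.76% in hrde-2. In control animals all 5 ratios were above 1, from 1.23 (0.447 to 3.69) at odr-1 to 2.87 (0.775 to 15.9) at tax-2 and 3.59 (0.402 to 169.8) at odr-3. Their sum went from 24 to 55 reads, a ratio of 1.65 (1.002 to 2.78), whose lower bound lies next to 1. In hrde-2 the sum went from 132 to 43 reads on a column with far fewer reads, a ratio of 0.996 (0.689 to 1.41). In the additive edgeR fit the adjusted p of the dsRNA effect was 0.9995 at each of tax-2, tax-4, odr-1 and daf-11, with log2 effects of 0.58, 0.33, 0.12 and −0.04.

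The genes differ in structure. The span of egl-4 is 32526 bases, of which annotated exons cover 3767, or 11.6%, in 15 separate blocks from 9 transcripts. The other 5 genes span 3213 to 7970 bases and have exons over 50.8 to 58.2% of them, with 1 transcript each except for 3 at daf-11. By span egl-4 is number 43 among annotated protein-coding genes, whose median is 2026 bases. No other annotated gene lies within egl-4, daf-11, odr-3, tax-2 or tax-4, and the piRNA gene 21ur-10724, inside odr-1, had 0 reads. No other gene had reads equal to those of egl-4 within 5% or 15 reads in all 4 columns, a sign of reads shared between genes. The 5 other members had too few reads for that check.

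The level at egl-4 did not extend to the genes beside it. On its left, ccm-2, whose end lies 110 bases away, had 2, 4, 18 and 4 reads, and cmk-1, a calcium/calmodulin-dependent kinase gene, had 3, 6, 14 and 5. On its right, the GATA factor genes egl-18 and elt-6 had 16, 13, 43 and 7 reads and 5, 6, 33 and 7 reads. Farther right denn-4 had 81, 84, 233 and 101 reads, or 0.914, 0.681, 0.645 and 0.855 RPKM. The left-most, Y38C1BA.4, had 1, 0, 0 and 0 reads. The highest of these 6 genes in hrde-2 on L4440 was denn-4 at 0.645 RPKM, where egl-4 stood at 48.3. Their log2 differences between genotypes ran from −2.29 at Y38C1BA.4, which rests on 1 read, to 1.05 at ccm-2 on L4440, and from −0.80 at egl-18 to 0.33 at denn-4 on oma-1 dsRNA.

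**Figure D2:**
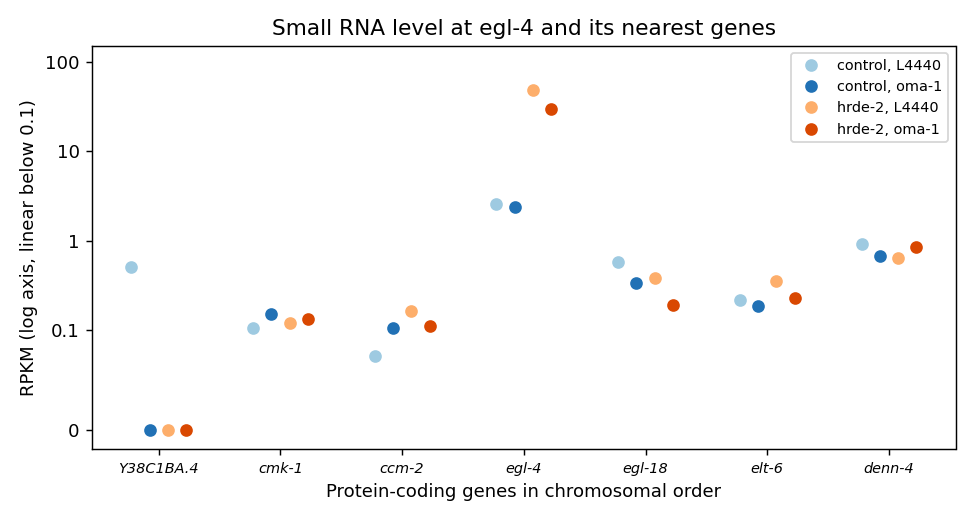
Small RNA level in RPKM (log axis, linear below 0.1) at egl-4 and the 3 nearest protein-coding genes on either side, in chromosomal order and equally spaced; each point is 1 pooled column. In hrde-2 on L4440 egl-4 reaches 48.3 RPKM and the highest neighbour, denn-4, 0.645.

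Beyond the 6 genes, 9 lists of related genes were examined, 159 genes in all, of which 158 were matched by symbol; gcy-2 was not. Few carried many small RNAs. On L4440, 21 of them had 5 CPM or more in either genotype, and 4 were at least 2-fold higher and 1 at least 2-fold lower in hrde-2, where protein-coding genes gave 14.5% and 19.5%. On oma-1 dsRNA 18 were compared, with 6 higher and 4 lower, against 15.1% and 24.9%. The median log2 difference of the listed genes compared was −0.21 on L4440 and 0.02 on oma-1 dsRNA, and none came near egl-4, the highest being 2.30 and 2.09. In the additive fit 15 of 150 listed genes tested were called higher and 12 lower, beside the 8.95% and 9.7% of all features. DESeq2 called 4 higher (gcy-12, gcy-13, gsa-1 and sma-3) and 3 lower (gcy-36, gcy-37 and gpb-2), and the other 20 calls were lost there. Over all 16329 features DESeq2 also called fewer, 1092, where edgeR called 1461 higher and 1584 lower. In the edgeR fit library size alone gave 111 listed genes higher and 0 lower, and the authors' factors gave 45 higher and 1 lower, gpb-2. The shares above hold for TMM only, and shares of all features called on these 2 scales are not given here. The median log2 difference of all features compared on L4440 was itself 0.93 under library size and 0.34 under the authors' factors. Genes below with under 5 CPM in both genotypes were named after their values were seen.

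**Figure D3:**
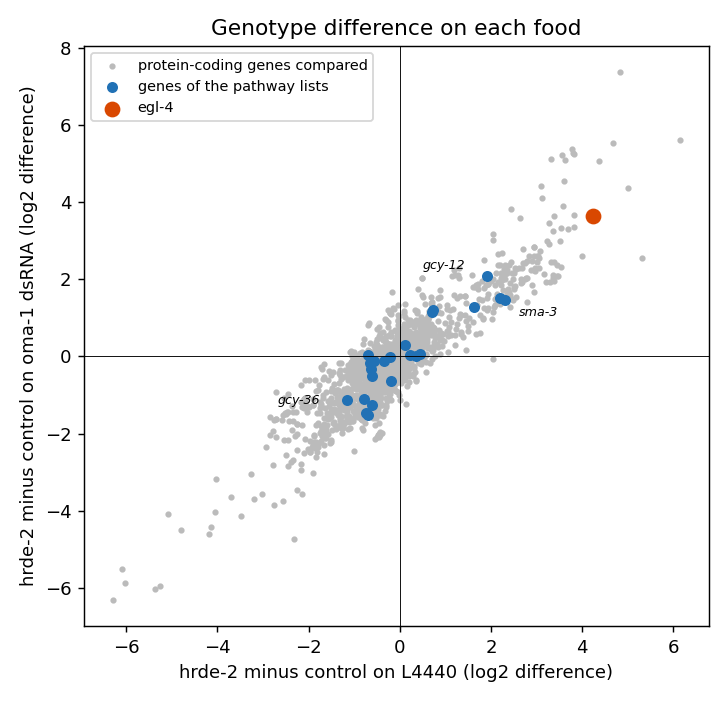
Log2 difference between hrde-2 and control on L4440 (horizontal) and on oma-1 dsRNA (vertical) for the 1449 protein-coding genes with 5 CPM or more in any group; blue points are genes of the pathway lists and the large point is egl-4. The egl-4 point, at 4.23 and 3.63, lies beyond all points of the lists, of which sma-3 is highest on L4440 at 2.30 and gcy-12 on oma-1 dsRNA at 2.09.

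Of the 31 guanylyl cyclase genes, 4 rose and 4 fell in hrde-2, 12.9% each way, beside 8.95% and 9.7% of all features. The median log2 effect over the tested genes was 0.25. The receptor-type gcy-12, which in this worm acts with egl-4 in body size, had 53, 69, 822 and 282 reads and an edgeR log2 effect of 2.01 (adjusted p = 2.61e-09). However, nmat-1 and C02B10.3 had near-equal reads, within 5% or 15 reads in each column, and may not be separate results from gcy-12. On L4440 the log2 difference between genotypes was 1.92 at gcy-12, 2.36 at nmat-1 and 2.22 at C02B10.3. On oma-1 dsRNA it was 2.09, 2.23 and 2.17. Whether these genes share reads was not tested. The receptor-type gcy-13 had 41, 83, 515 and 195 reads and rose by 1.45 (edgeR, adjusted p = 9.58e-06). The soluble cyclase gene gcy-36, which acts in oxygen-sensing neurons, had 792, 1072, 1437 and 466 reads. Its columns ran against those of egl-4, and it fell by 1.15 (edgeR, adjusted p = 0.0123), although on L4440 its log2 difference of −1.17 turned to 0.23 under library size alone. The others called were gcy-31 at 1.58 and gcy-4 at 0.93, which rose, and gcy-35 at −1.30, gcy-25 at −1.27 and gcy-37 at −1.10, which fell. Of the 8 genes called, gcy-31, gcy-35, gcy-36 and gcy-37 encode soluble cyclases, of which 1 rose and 3 fell. However, the 4 genes that fell, gcy-25, gcy-35, gcy-36 and gcy-37, were not called under library size or under the authors' factors. DESeq2 did not call gcy-4, gcy-25, gcy-31 or gcy-35.

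Of the 6 phosphodiesterase genes, 3 rose and 0 fell (all features 8.95% and 9.7%). They were pde-5 at 2.18 with 4, 3, 44 and 22 reads, pde-4, whose relatives hydrolyse cAMP, at 1.16, and pde-1 at 0.89, with adjusted p (edgeR) of 0.000526, 0.00981 and 0.00834; DESeq2 called 0 of these. The highest by level, pde-2, had 84, 98, 232 and 87 reads and an effect of −0.34 (edgeR, adjusted p = 0.396). Of 8 sensory channel genes tested, the TRPV channel genes osm-9 and ocr-4 fell (edgeR, adjusted p = 0.00830 and 0.0378), osm-9 by 0.99, although the median of the list was 0.35. DESeq2 called neither gene. Under library size alone osm-9 and ocr-4 turned to 0.23 and 0.22, and neither was called there or under the authors' factors.

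Of 21 G protein genes tested, 3 rose and 1 fell (all features 8.95% and 9.7%). The stimulatory alpha subunit gene gsa-1 had 21, 41, 399 and 113 reads and rose by 1.84 (edgeR, adjusted p = 3.37e-09). With it rose gpa-4 at 1.53 and gpa-14 at 1.33, while gpb-2, a beta subunit gene, fell by 1.56. The listed gene gpa-9 had 112, 207, 401 and 128 reads and an effect of −0.41 (edgeR, adjusted p = 0.338), and egl-30, the Gq alpha gene, had −0.56 (edgeR, adjusted p = 0.156). Of the 15 AGC kinase genes, relatives of egl-4 such as kin-1, akt-1 and the second cGMP-dependent kinase gene pkg-2, 0 were called by edgeR or DESeq2, and 0 had an unadjusted p under 0.05. Their median log2 effect was −0.24. Among them mrck-1 had an effect of −0.43 (edgeR, adjusted p = 0.272). Over all 16329 features, 4801 had an unadjusted p under 0.05 for genotype in edgeR, and DESeq2 called 1092.

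Among 16 genes of odor adaptation and EGL-4 regulation, 2 rose and 1 fell (all features 8.95% and 9.7%, also for the lists that follow). They were rgs-3, a regulator of G protein signalling, at 1.45 with 18, 30, 225 and 71 reads, saeg-1, a suppressor of activated egl-4, at 1.02, and mef-2, a transcription factor gene, at −1.09 with 123, 203, 299 and 70 reads. DESeq2 called 0 of these 3 (adjusted p = 0.0531, 0.188 and 0.0809). Under library size alone mef-2 turned to 0.13, and it was not called there or under the authors' factors. On both of those scales rgs-3 and saeg-1 were called higher. The partner saeg-2 had more reads, 365, 579, 1747 and 566, and an effect of 0.13 (edgeR, adjusted p = 0.852). Of 22 nuclear RNAi and small RNA synthesis genes, 0 rose and 2 fell, nrde-1 by 0.92 and rde-4 by 0.93 (edgeR, adjusted p = 0.00325 and 0.00317), and ergo-1 had an effect of −0.35 (edgeR, adjusted p = 0.382). The 2 that fell are 9.09% of that list, near the 9.7% of all features called lower. In DESeq2 nrde-1 and rde-4 had adjusted p of 0.252 and 0.228. Under library size alone their effects turned to 0.295 and 0.297, and neither was called there or under the authors' factors. Of 16 olfactory neuron genes tested, eat-4, the vesicular glutamate transporter gene, rose by 0.98, and npr-11 (edgeR, adjusted p = 0.000196) and odr-8, which fell by 0.70, were lower. DESeq2 called 0 of these 3 either. Under library size alone npr-11 and odr-8 turned to 0.02 and 0.52, and neither was called there or under the authors' factors. On both of those scales eat-4 was called higher. Of 15 genes of the TGF-beta pathways of body size and dauer, in which EGL-4 and DAF-11 act, sma-3, a Smad gene, rose by 1.86 with 44, 109, 885 and 290 reads, and daf-7, the ligand gene, rose by 1.91 with 5, 9, 90 and 29 reads, a call that DESeq2 did not make (adjusted p = 0.0915). The median of that list was −0.16. For the dsRNA effect 0 of the 150 listed genes were called by edgeR or DESeq2, and 1, gcy-9, had an unadjusted p under 0.05 (edgeR). Of all 16329 features, edgeR called 16 higher and 13 lower for dsRNA, and DESeq2 called 5. An unadjusted edgeR p under 0.05 was seen at 771 of them.

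**Figure D4:**
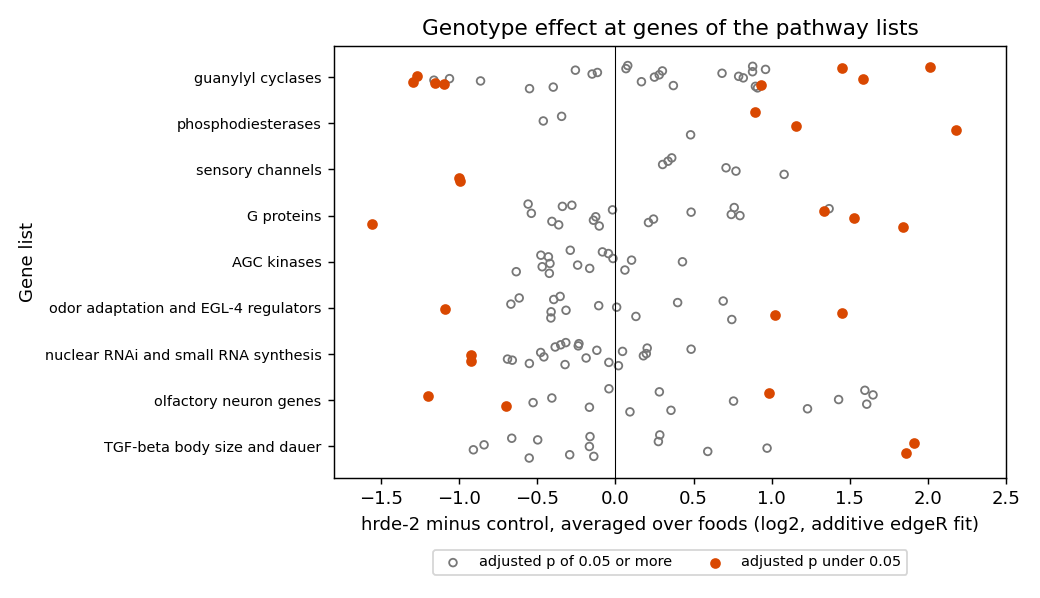
Log2 effect of genotype averaged over foods, from the additive edgeR fit, for each tested gene of the 9 lists; filled points have an adjusted p under 0.05 and open points do not. Filled points lie on both sides of 0, 15 to the right and 12 to the left, and the AGC kinases have 0.

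The pattern of egl-4 over the 4 columns was compared with those of 1268 features with 1000 reads or more. Likeness was the largest gap in any column between the log2 levels after each was centred on its own mean, over 4 columns only. The nearest was T16G12.4 on chromosome III, with 29, 33, 1694 and 408 reads and a gap of 0.23. Next were the let-7 family miRNA gene cel-mir-241 (52, 87, 3063 and 948 reads, gap 0.45) and F15D4.5 (60, 100, 3161 and 944 reads, gap 0.51). Both had near-equal reads, within 5% or 15 reads in each column, and may not be separate results. Whether they share reads was not tested. Y102A5C.36 (7, 11, 942 and 224 reads, gap 0.52) and lido-18 (26, 39, 1248 and 382 reads, gap 0.55) completed the 5. None of the 5 belongs to the pathway lists, and they lie on chromosomes II, III and V, away from egl-4. In hrde-2 animals the log2 difference between oma-1 and L4440 dsRNA was −0.72 at egl-4, −0.46 at Y102A5C.36, −0.44 at T16G12.4 and between −0.13 and −0.08 at the remaining 3.

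**Figure D5:**
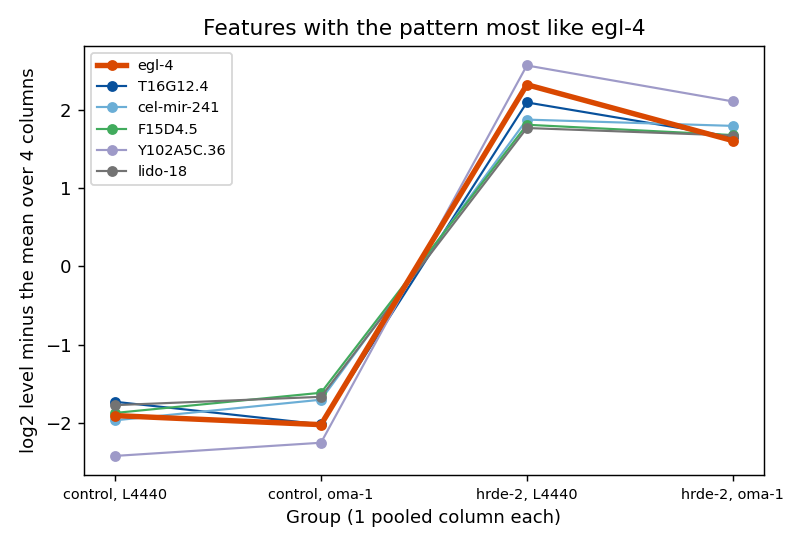
Log2 level in each pooled column minus the feature's own mean over the 4 columns, for egl-4 (thick line) and the 5 features most like it; lines join values of 1 feature and do not stand for a trend. All 6 are below 0 in both control columns and above 0 in both hrde-2 columns, and egl-4 drops by 0.72 between the hrde-2 columns.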

How the data were processed

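Per the labels' protocols, small RNAs enriched with a mirVana kit were cloned (2 µg) by a method that needs no 5′ monophosphate, with barcodes of 4 nt (5′) and 6 nt (3′), and sequenced on a NextSeq500. HTSeq 0.6.1 is named in the submitters' processing notes. Aligner, build, strand setting and the treatment of multiply mapped reads: not given in the sources used here. Per the file headers, the authors deposited raw read counts, 1 column per group of 3 samples, and a normalized signal, the count divided by 1, 1.34, 2.33 or 0.87. Reads at genes were 34.7 to 40.1% of those listed in a column; reads at no feature, ambiguous or not aligned were left out.

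Positions came from an Ensembl annotation of WBcel235, matched by identifier (46364 of 46726). Features were kept by filterByExpr (minimum count 10, total 15; 16329 kept), scaled by TMM and fitted with glmQLFit (robust) and glmQLFTest of edgeR 4.0.16; the common dispersion was 0.0305. Because each group has 1 column, and how its 3 samples were merged is not stated, its p-values do not measure the spread between animals. Log2 differences used a prior count of 0.5; ratios have conditional binomial (Clopper-Pearson) intervals. Other scalings, no filter, a prior count of 2 and DESeq2 1.42.0 were tried, and TMM on protein-coding genes was added after seeing the data. Members and lists were chosen with earlier results of these data known. Genes named by rule were the members, the 5 features most like egl-4 and up to 3 genes a list with the largest genotype difference at 5 CPM or more. 1 of these genes is not reported here.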

Additional observations from a re-analysis of the deposited data

How the results depend on the processing

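DESeq2 size factors, miRNA factors, TMM on protein-coding genes (chosen after seeing the data), no filter and a prior count of 2 moved no log2 difference of egl-4 out of its counting interval and no count of listed genes by over 1.5 times. Under library size alone the log2 difference of egl-4 between genotypes was 5.63 on L4440 and 4.66 on oma-1 dsRNA, and under the authors' factors 5.04 and 4.19. Between dsRNAs in hrde-2 it was −1.04, past 2-fold, and −0.91, and the difference of dsRNA effects was −0.97 under library size. Listed genes 2-fold higher in hrde-2 on L4440 numbered 27 under library size and 12 under the authors' factors, with 0 lower under both, and on oma-1 dsRNA 20 under library size, with 0 lower under both. All protein-coding genes compared had a median log2 difference of 1.04 on L4440 and 0.76 on oma-1 dsRNA under library size. Under the authors' factors that median was 0.44 on L4440. At least 2-fold lower on oma-1 dsRNA in hrde-2 was 1 listed gene under library size. In the additive fit library size gave 111 listed genes higher and 0 lower, the authors' factors 45 and 1, and DESeq2 4 and 3. Shares of all features called under library size or the authors' factors are not given here. At gcy-36 the L4440 difference turned to 0.23 under library size. At tax-4 the genotype effect passed under the authors' factors (1.27, adjusted p = 0.0221). Over all features compared on L4440, the median log2 difference was −0.47 with TMM, 0.93 with library size and 0.34 with the authors' factors. Which scale holds was not tested. No paired analysis was possible because each group has 1 pooled column, so that no replicate block could be fitted and no replicate left out. Reads of 1 to 41 limit the 5 other members.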
